A study of Homo sapiens with 38 samples.

Results

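The keratin genes (KRT) and keratin-associated protein genes (KRTAP) of the human genome were examined for 2 histone marks, H3K27me3 and H3K27ac. Members were the protein-coding genes of the GENCODE annotation of GRCh37 (the build called hg19) whose symbol is KRT or KRTAP followed by a number, which gave 149 of 20163 protein-coding genes, 94 of them KRTAP and 55 KRT. The series profiled K562, an established human leukemia line with erythroid features, by CUT&Tag, in which an antibody guides a transposase to a histone mark and the cut fragments are sequenced. The benchmark set held 2 H3K27me3 libraries (antibody CST-9733, diluted 1:100) and 6 H3K27ac libraries, 2 each of the antibodies ab177178 and ab4729 (1:100) and Diagenode (1:50), all without the deacetylase inhibitor TSA. Another 30 libraries (5 H3K27me3, 25 H3K27ac) varied antibody, antibody dilution, TSA, number of PCR cycles and DNA extraction, with 1 library per condition. The lists of the TSA and the PCR and extraction libraries came from reads the authors had thinned before calling. The study describes the replicates of the benchmark antibodies as biological, the labels do not say what separated them, and the p-values below measure the spread between these libraries.

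Keratins are the intermediate filament proteins of epithelial cells. A type I keratin pairs with a type II keratin to form a filament, and each epithelium uses its own pairs, while hair keratins and the cysteine-rich or glycine-tyrosine-rich keratin-associated proteins build the hair shaft. H3K27ac marks active promoters and enhancers, and H3K27me3, laid down by Polycomb repressive complex 2, marks genes held silent, often in broad domains. K562 is a blood line, and filament genes of epithelium are not part of its usual programme.

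The members fell into 8 clusters, taken as runs of neighbouring members of the same family under 500 kb apart. Chromosome 11 held KRTAP5-1 to KRTAP5-6 (6 genes) and KRTAP5-7 to KRTAP5-11 (5 genes), both of the ultrahigh-sulfur KRTAP5 family. Chromosome 12 held the type II keratins together with the type I keratin KRT18, from KRT80 to KRT18 (27 genes). Chromosome 17 held 3 runs in a row, KRT222 to KRT40 (12 type I genes), KRTAP3-3 to KRTAP17-1 (34 genes) and KRT33A to KRT17 (16 type I genes). Chromosome 21 held KRTAP24-1 to KRTAP19-8 (33 genes, among them the glycine-tyrosine-rich families) and KRTAP10-1 to KRTAP10-12 (16 KRTAP10 and KRTAP12 genes, all inside the gene TSPEAR).

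Reference sequence at 3 transcript starts is shown, for members of chromosome 21 that differ in the state the results below turn on. Each is the 250 bases before and 50 after the outermost annotated start, read from GRCh37 on the strand of the gene, 5′ to 3′, with CpG dinucleotides in capitals. KRTAP10-6 carried H3K27ac by both callers and, by MACS2, H3K27me3 as well. KRTAP10-7 beside it carried H3K27me3 without H3K27ac in the benchmark libraries, and KRTAP13-1 carried no peak there. The windows are KRTAP10-6 chr21:46012337-46012636 (minus strand), KRTAP10-7 chr21:46020247-46020546 (plus strand) and KRTAP13-1 chr21:31768099-31768398 (plus strand).
KRTAP10-6: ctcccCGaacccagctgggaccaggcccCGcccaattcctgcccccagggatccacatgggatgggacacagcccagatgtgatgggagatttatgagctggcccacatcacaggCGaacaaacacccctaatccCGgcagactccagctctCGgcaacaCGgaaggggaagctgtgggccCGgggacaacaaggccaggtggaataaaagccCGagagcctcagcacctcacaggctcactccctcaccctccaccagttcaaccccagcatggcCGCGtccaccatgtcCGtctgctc
KRTAP10-7: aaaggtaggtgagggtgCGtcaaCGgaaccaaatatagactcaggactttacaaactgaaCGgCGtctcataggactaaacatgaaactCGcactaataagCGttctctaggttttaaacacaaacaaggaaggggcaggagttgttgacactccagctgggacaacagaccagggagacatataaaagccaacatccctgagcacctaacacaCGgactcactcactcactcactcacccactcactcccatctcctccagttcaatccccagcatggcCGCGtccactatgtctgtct
KRTAP13-1: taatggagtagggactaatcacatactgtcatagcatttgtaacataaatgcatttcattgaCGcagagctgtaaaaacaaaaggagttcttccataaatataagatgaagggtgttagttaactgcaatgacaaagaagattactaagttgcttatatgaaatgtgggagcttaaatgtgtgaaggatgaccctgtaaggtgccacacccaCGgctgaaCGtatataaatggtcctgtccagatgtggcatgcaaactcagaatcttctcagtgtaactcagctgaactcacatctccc
These windows hold 11 CpG at KRTAP10-6, 9 at KRTAP10-7 and 3 at KRTAP13-1.

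H3K27me3 was frequent and H3K27ac rare at the starts of these genes. A member was counted as carrying a mark when a peak overlapped, by at least 1 bp, the 1500 bp on either side of any of its annotated transcript starts in 2 of 2 H3K27me3 libraries or in at least 2 of 6 H3K27ac libraries. By MACS2 peaks, H3K27me3 lay at 70 of 149 members (47.0%), beside 26.3% of all protein-coding genes. By SEACR peaks it lay at 69 members (46.3%), beside 25.9% of all protein-coding genes. H3K27ac lay at 5 members by MACS2 (3.36%), beside 56.3% of all protein-coding genes, and at 6 by SEACR (4.03%), beside 50.9%. Neither mark was found at 75 members by MACS2 (50.3%), beside 22.7% of all protein-coding genes. Both marks lay at 1 member by MACS2, beside 5.21% of all protein-coding genes, and at 0 by SEACR, beside 3.74%. In none of the 16 benchmark lists did a peak touch the starts of 62 members (41.6%), beside 17.3% of all protein-coding genes. With MACS2 peaks restricted to a q of 1e-10 or lower, the 70 members with H3K27me3 came to 5 (3.36%). This stands beside 3.97% of all protein-coding genes, so at that limit members were not above the share of all genes. Members with H3K27ac stayed at 5, beside 54.2% of all protein-coding genes. The q values of the 2 marks are not on a like scale, since 83.7% and 91.9% of the broad H3K27me3 peaks carry a q above 1e-05 in their 2 lists and 0% of the H3K27ac peaks do, so the same limit does not compare the marks alike. With members left out whose windows also hold the start of a gene outside the families, those with H3K27ac came to 2 by MACS2 and 3 by SEACR. KRT8, KRT18 and KRT13 were the members with H3K27ac that dropped out.

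**Figure D1:**
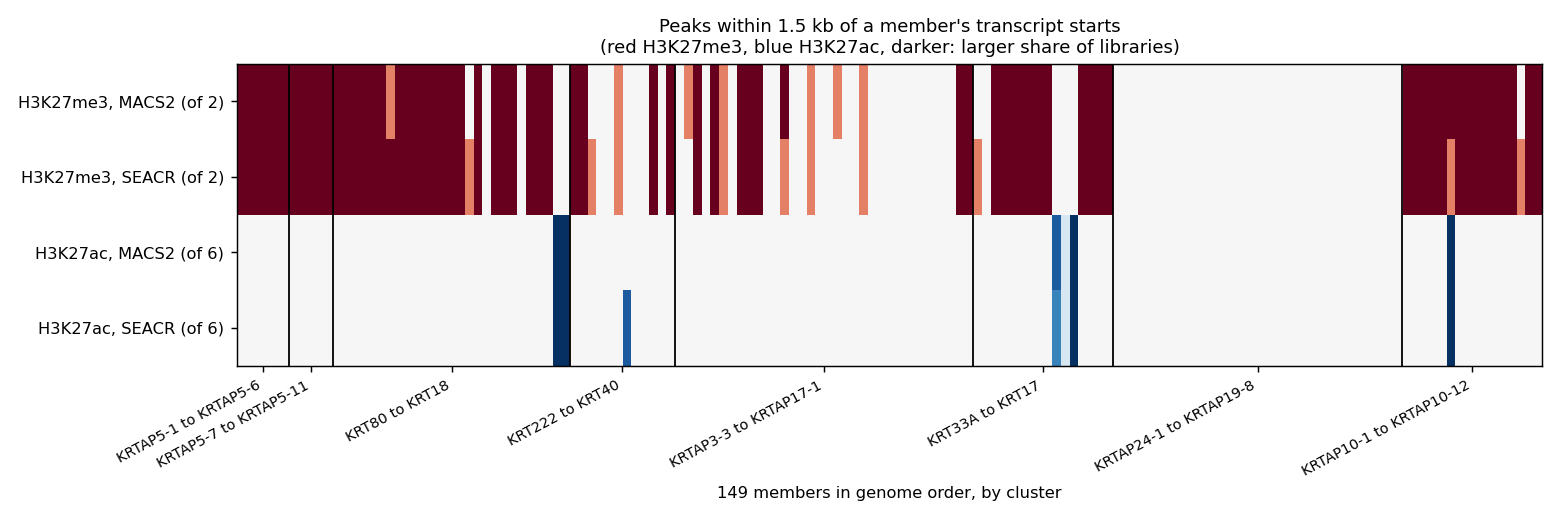
Each column is 1 of the 149 members in genome order, with black lines between clusters, and each row is a mark and caller, shaded by the share of libraries with a peak within 1.5 kb of a transcript start (red H3K27me3, blue H3K27ac). The cluster KRTAP24-1 to KRTAP19-8 is blank in every row, and blue is limited to 7 columns, 6 of them with at least 2 H3K27ac libraries in 1 caller.

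Over gene bodies, from the first to the last annotated base, the counts were close to those at starts. H3K27me3 peaks overlapped 75 member bodies by MACS2, beside 30.9% of all protein-coding genes, and 74 by SEACR, beside 30.8%. H3K27ac peaks overlapped 5 member bodies by MACS2, beside 59.3% of all protein-coding genes, and 6 by SEACR, beside 54.0%. H3K27me3 was called with a broad peak setting in MACS2 and a looser SEACR threshold than H3K27ac, so the mark and the calling settings cannot be told apart in any comparison of the 2 marks.

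The share of a gene body covered by peaks was above every H3K27ac library in both H3K27me3 libraries for 74 of the 87 members covered in any library by MACS2. This stands beside 32.5% of the 17125 protein-coding genes covered in any library. By SEACR it was 74 of 87, beside 32.7% of 16633 genes. Most members had no H3K27ac peak over the body, and there any H3K27me3 peak in both libraries places the member above. It was below every H3K27ac library for 3 members by MACS2, KRT8, KRT18 and KRT19, beside 47.9% of genes, and for 4 by SEACR, the same genes and KRTAP10-6, beside 43.9%. In each caller 62 of the 149 members were covered in no benchmark library and could not be tested. The difference in cover, H3K27me3 minus H3K27ac, had a median of 11.97 percentage points over all 149 members and -0.47 over all protein-coding genes by MACS2, and 13.95 and -0.43 by SEACR. An exact two-sided permutation test of 2 against 6 libraries cannot go below p = 0.0357, and after Benjamini-Hochberg adjustment over all genes covered the smallest value was 0.0501 by MACS2 and 0.0536 by SEACR. At an adjusted p under 0.05, 0 genes passed in either caller, while 12212 genes by MACS2 and 11074 by SEACR had an unadjusted exact p under 0.05.

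KRT8, KRT18 and KRT19, which are among the keratins of simple epithelia, had H3K27ac at a start in all 6 H3K27ac libraries by both callers. KRTAP10-6 was the only other member that did. KRT7 and KRT20, of ductal and intestinal epithelium, had no H3K27ac peak at a start in any benchmark library. No H3K27me3 peak touched the start or body of KRT8, KRT18 or KRT19 in either library. KRT8 (type II) and KRT18 (type I) pair with each other and lie head to head on chromosome 12, KRT8 at 53290971 to 53343738 on the minus strand and KRT18 at 53342655 to 53346690 on the plus strand. Of the 18 annotated KRT8 starts, 8 lie at KRT18. AC107016.2, a gene outside the families, also shares start windows with KRT8 and KRT18. The peak there therefore cannot be given to a single gene.

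The strongest MACS2 peak shared by KRT8 and KRT18 had a fold enrichment of 22.5 in the lowest, 33.0 in the median and 51.7 in the highest of the 6 H3K27ac libraries, and stood above 87.6% to 93.4% of the peaks of its own list. It was 1493 to 2046 bp wide and over the 6 libraries lay between -244 and 1941 bp of the outermost KRT18 start, over the first part of KRT18. KRT18 body cover by MACS2 was 0% in both H3K27me3 libraries, against 36.99%, 64.4% and 68.2% in the lowest, median and highest H3K27ac library. The lowest H3K27ac library, ab4729 replicate 1, stood apart from the other 5, which lay at 58.1% or above.

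The other 10 KRT8 starts lie at least 22402 bp from the KRT18 start, between 53295651 and 53320253. Windows at these inner starts, added after the data were seen, held a peak in 6 of 6 H3K27ac libraries by both callers and in 0 of 2 H3K27me3 libraries. The strongest MACS2 peak there ran from 53296860 to 53299440 in ab177178 replicate 2, with a fold enrichment of 29.9. The lowest of the 6 libraries, ab4729 replicate 1, had a fold enrichment of 15.998 at its strongest peak there. KRT8 body cover by MACS2 was 0% in both H3K27me3 libraries, against 5.87%, 8.90% and 12.7% in the lowest, median and highest H3K27ac library, so all 6 H3K27ac libraries lay above.

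KRT19, the smallest type I keratin and a marker of simple and ductal epithelium, carried a broad H3K27ac peak on chromosome 17 (gene at 39679869 to 39684560, minus strand). Its strongest MACS2 peak had a fold enrichment of 19.6, 30.7 and 33.3 in the lowest, median and highest library and a median width of 4171 bp. KRT19 body cover by MACS2 was 0% in both H3K27me3 libraries, against 25.3%, 30.2% and 31.1% in the lowest, median and highest H3K27ac library. The 6 H3K27ac libraries lay close together and all above the H3K27me3 libraries (exact two-sided permutation p = 0.0357 before and 0.0501 after adjustment over all genes).

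KRT10, KRT13 and KRT15 had weaker or partial H3K27ac. KRT10, the type I keratin of differentiating epidermis that pairs with KRT1, had no MACS2 peak at its start in any library, and a SEACR peak there in 5 of 6. Its strongest MACS2 peak began 1768 bp or more after the start, inside the gene, where the antisense long non-coding RNA KRT10-AS1 also begins, and its fold enrichment was 9.52 to 17.6 in the 5 libraries with a peak. Without strand in the peak lists, the signal cannot be given to either gene.

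KRT13, a type I keratin of non-cornified stratified epithelium, had a peak at a start in 5 of 6 libraries by MACS2 and 4 of 6 by SEACR. The strongest MACS2 peak lay between 4771 and 5790 bp after the outermost start, beyond or at the far end of the gene, in a window shared with the start of a long non-coding RNA, and its fold enrichment was 6.97 to 10.3, above 5.42% to 39.7% of the peaks of its list. KRT15, a type I keratin of basal epithelial cells, had a peak at a start in 1 of 6 libraries, ab177178 replicate 1, by both callers. No H3K27me3 peak touched KRT10, KRT13 or KRT15 in either library.

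KRTAP10-6, a high-sulfur hair shaft gene at 46011149 to 46012386 on chromosome 21 (minus strand), was the member with both marks by MACS2. Its strongest H3K27ac MACS2 peak lay mainly before the start, between -2778 and 256 bp of it over the 6 libraries, with a fold enrichment of 16.1, 24.9 and 37.7 in the lowest, median and highest library. KRTAP10-6 body cover by SEACR was 0% and 13.8% in the H3K27me3 libraries, against 29.3%, 100% and 100% in the lowest, median and highest H3K27ac library (exact permutation p = 0.0357, adjusted p = 0.0536). By MACS2 it was 6.70% and 4.52% in the H3K27me3 libraries, against 0%, 1.86% and 50.7% in the lowest, median and highest H3K27ac library, so the groups overlapped (exact permutation p = 0.893). The strongest H3K27me3 MACS2 peaks lay at the far end of the gene, at 46009745 to 46011231 in replicate 1 and 46009646 to 46011204 in replicate 2. Replicate 1 had another, weaker peak before the start, at 46013631 to 46014051 with a fold enrichment of 2.64, within the stretch of the H3K27ac peaks. Of the 75-base words of KRTAP10-6, 38.1% occurred again in the 8 spans, and whether reads of related KRTAP10 genes were placed there was not tested.

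H3K27me3 covered some members in full. At 23 of 149 members (15.4%), peaks covered 100% of the gene body in both libraries by both callers, beside 1.79% of all protein-coding genes. Short genes are more easily covered in full, and with genes split by length, a split added after the data were seen, this was 18 of 92 members under 2 kb (19.6%), beside 10.7% of protein-coding genes of that length, and 5 of 42 members of 2 to under 10 kb (11.9%), beside 4.83%. The 23 were 7 of 11 KRTAP5 genes, 11 of 16 KRTAP10 and KRTAP12 genes and 5 of 55 KRT genes. In genome order the first 12 of them were KRTAP5-1, KRTAP5-2, KRTAP5-3, KRTAP5-5, KRTAP5-6, KRTAP5-8, KRTAP5-10, KRT31, KRT37, KRT14, KRT16 and KRT17. KRT31 and KRT37 are type I hair keratins, KRT14 pairs with KRT5 in the basal layer of stratified epithelia, and KRT16 and KRT17 are induced in wounded and hyperproliferative skin. The widest MACS2 peak at KRT16 and at KRT17 was the same width, 20946 to 21791 bp over the 2 libraries.

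All 11 KRTAP5 members carried H3K27me3 at the start in both libraries by both callers. Cover was incomplete at KRTAP5-7, with 87.9% and 60.8% by MACS2 and 100% and 62.2% by SEACR in replicates 1 and 2, and near complete at KRTAP5-11, with 100% and 100% by MACS2 and 95.2% and 97.3% by SEACR. The widest MACS2 peak at KRTAP5-11 spanned 42917 to 44632 bp.

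In the KRT80 to KRT18 cluster, of type II keratins and KRT18, 21 of 27 genes (77.8%) carried H3K27me3 at a start by both callers. This stands beside 24.8% of all protein-coding genes. KRT5, the basal partner of KRT14, had 79.9% and 96.5% of its body covered in the 2 libraries by MACS2. KRT7, of ductal epithelium, had 94.9% and 80.1%, and KRT6A, a partner of KRT16 in wounded skin, had 88.3% and 65.9%. KRT80 had 91.4% and 93.6%, the hair keratin KRT81 had 95.4% and 98.6%, and the hair keratin KRT86 had 54.4% and 52.8%. KRT1, the epidermal partner of KRT10, carried the mark at a start, with 3.77% and 15.0% of its body covered, so a marked start did not mean a covered gene.

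KRT2, a keratin of the uppermost epidermis, carried neither mark at a start in any of the 16 lists, and its body was covered at 0% in each H3K27me3 list. KRT3 (a keratin of the cornea) likewise had no peak at its start in any of the 16 lists, and KRT72 (an inner root sheath keratin) had H3K27me3 at a start in 1 of 2 libraries by SEACR and 0 by MACS2, both named after their values were seen. Repeated sequence was high at KRT81, where 45.4% of 75-base words occurred again in the 8 spans, and the placing of its reads was not tested.

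Of the type I keratins in the run from KRT33A to KRT17, 11 of 16 (68.8%) carried H3K27me3 at a start by both callers, beside the same 24.8%. In the run from KRT222 to KRT40, 4 of 12 (33.3%) did, a share near that of all protein-coding genes. KRT20, of intestinal epithelium, had no peak at a start in any of the 16 lists. KRT23 had 40.4% and 42.8% of its body covered by H3K27me3 MACS2 peaks, KRT40, a hair keratin, 27.3% and 32.5%, and KRT222 7.74% and 6.85%. KRT33A, a hair keratin, had 19.5% and 16.6% of its body covered, with no MACS2 peak at its start.

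Among the keratin-associated protein genes, H3K27me3 lay at the start by both callers in 11 of 11 KRTAP5 genes, 14 of 16 genes of the KRTAP10-1 to KRTAP10-12 cluster (87.5%) and 0 of 33 of the KRTAP24-1 to KRTAP19-8 cluster, beside 24.8% of all protein-coding genes. In the KRTAP3-3 to KRTAP17-1 cluster it lay at 7 of 34 (20.6%), a share near that of all protein-coding genes. KRTAP3-3, the first gene of its run, had no peak in any of the 16 lists, while KRTAP17-1, the last gene, had 100% and 53.2% of its body covered by MACS2 and 100% and 100% by SEACR. KRTAP12-2, named after its values were seen, was the only gene of the KRTAP10-1 to KRTAP10-12 cluster at 0% in more than 1 of the 4 H3K27me3 lists, with 77.3% in the SEACR list of replicate 1. KRTAP10-1 and KRTAP10-12, the ends of their cluster, were covered in full in all 4 H3K27me3 lists. KRTAP24-1 and KRTAP19-8, the ends of the other chromosome 21 cluster, had no peak at a start in any of the 16 lists.

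Cluster spans, each taken from 1500 bp before its first gene to 1500 bp after its last, were then scored as the share of bases under peaks, beside the share of the known genome under peaks in the same library. H3K27me3 peaks covered on average 7.17% of the genome by MACS2 (6.76% to 7.58%, n = 2) and 7.51% by SEACR (at most 8.02%, n = 2). H3K27ac peaks covered 1.17% by MACS2 (0.707% to 1.40%, n = 6) and 2.16% by SEACR (1.73% to 2.72%, n = 6).

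The KRTAP5-1 to KRTAP5-6 span was covered by H3K27me3 MACS2 peaks at 85.0% and 87.0%, against 0% in each of the 6 H3K27ac libraries, and the KRTAP5-7 to KRTAP5-11 span at 75.5% and 76.0%, against 0%. The KRT80 to KRT18 span was covered at 38.7% and 43.3%, against 0.514% to 1.296% in the H3K27ac libraries. The KRT33A to KRT17 span was covered at 39.4% and 41.5%, against 1.33% to 2.11%, and the KRTAP10-1 to KRTAP10-12 span at 39.0% and 44.3%, against 1.24% to 2.11%. These 5 spans stood at 5.65 to 12.02 times the genome share for H3K27me3 by MACS2. H3K27me3 cover was also high beside some of them. The 500 kb before KRTAP5-1 to KRTAP5-6 was covered at 44.1% and the 500 kb after it at 71.2%. Both values lay below the span itself and above the genome share, so high cover there was not limited to the cluster. The same values were 32.9% and 6.31% around KRTAP5-7 to KRTAP5-11, and 28.02% and 0.107% around KRT80 to KRT18. Around KRTAP10-1 to KRTAP10-12 they were 51.2% and 34.2%, so cover before this span lay above that of the span itself. They were 8.14% and 7.68% around KRT33A to KRT17, where the stretch before the span takes in the KRTAP3-3 to KRTAP17-1 span.

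The KRT222 to KRT40 span was covered at 16.2% and 16.4% by H3K27me3, against 0.19% to 1.08% by H3K27ac, and stood at 2.28 times the genome share. The KRTAP3-3 to KRTAP17-1 span was covered at 2.66% and 3.63% by H3K27me3, against 0% in the 6 H3K27ac libraries, and stood at 0.436 times the genome share. The KRTAP24-1 to KRTAP19-8 span, 760 kb long, was covered at 0% by both marks in all 8 benchmark libraries and both callers. H3K27me3 exceeded H3K27ac in 7 of 8 spans in each caller (exact two-sided permutation p = 0.0357, the smallest that 2 against 6 libraries allow), with no adjustment over spans. In the KRTAP5-1 to KRTAP5-6, KRTAP5-7 to KRTAP5-11 and KRTAP3-3 to KRTAP17-1 spans, H3K27ac was at 0% in every benchmark library by both callers. Any H3K27me3 peak in both libraries gives this p there, so the test adds nothing in those spans. With either H3K27me3 library left out, 0 of 8 spans could pass, and at a MACS2 q of 1e-10 the difference turned to -0.77 points in the KRT80 to KRT18 span and -0.55 points in the KRT222 to KRT40 span.

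**Figure D2:**
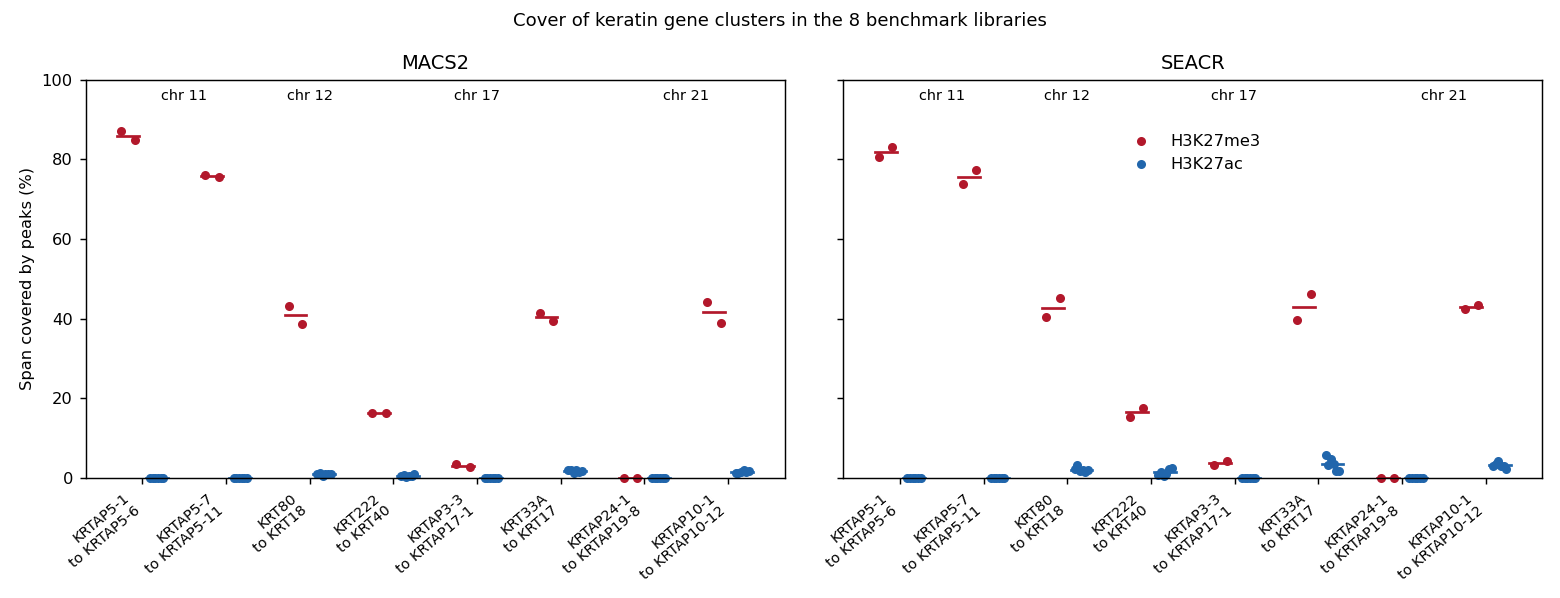
The share of each cluster span under peaks (%) is drawn for each benchmark library, with H3K27me3 (red, 2 libraries) left of H3K27ac (blue, 6 libraries), lines at the means, and the 2 callers side by side. The spans of chromosome 11 are highest for H3K27me3, 3 spans lie near 40%, and the KRTAP24-1 to KRTAP19-8 span lies at 0 for both marks.

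The layout inside the clusters of chromosomes 12, 17 and 21 showed where each mark lay. On chromosome 12 H3K27me3 SEACR peaks lay over most type II keratins and the last 2 kb bin that held any ended 714 kb into the span, before KRT8 at 729.7 kb. H3K27ac SEACR peaks began before that, in the bin from 702 to 704 kb, and covered 96.9% of the bin from 706 to 708 kb. Both marks lay in the bin from 710 to 712 kb (H3K27me3 12.5%, H3K27ac 33.3%). The bin from 712 to 714 kb also held both (22.7% and 19.2%), so the bin means did not separate the marks here. They average the SEACR lists of 2 H3K27me3 and 6 H3K27ac libraries, and the values of single libraries are not given. In the run from KRT33A to KRT17, H3K27ac at KRT13 and KRT19 sat in a stretch from 148 to 206 kb with no H3K27me3 SEACR peak, between 2 marked blocks, the hair keratins on one side and KRT9, KRT14, KRT16 and KRT17 on the other. KRT9 (a keratin of palm and sole skin) was named after its values were seen.

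**Figure D3:**
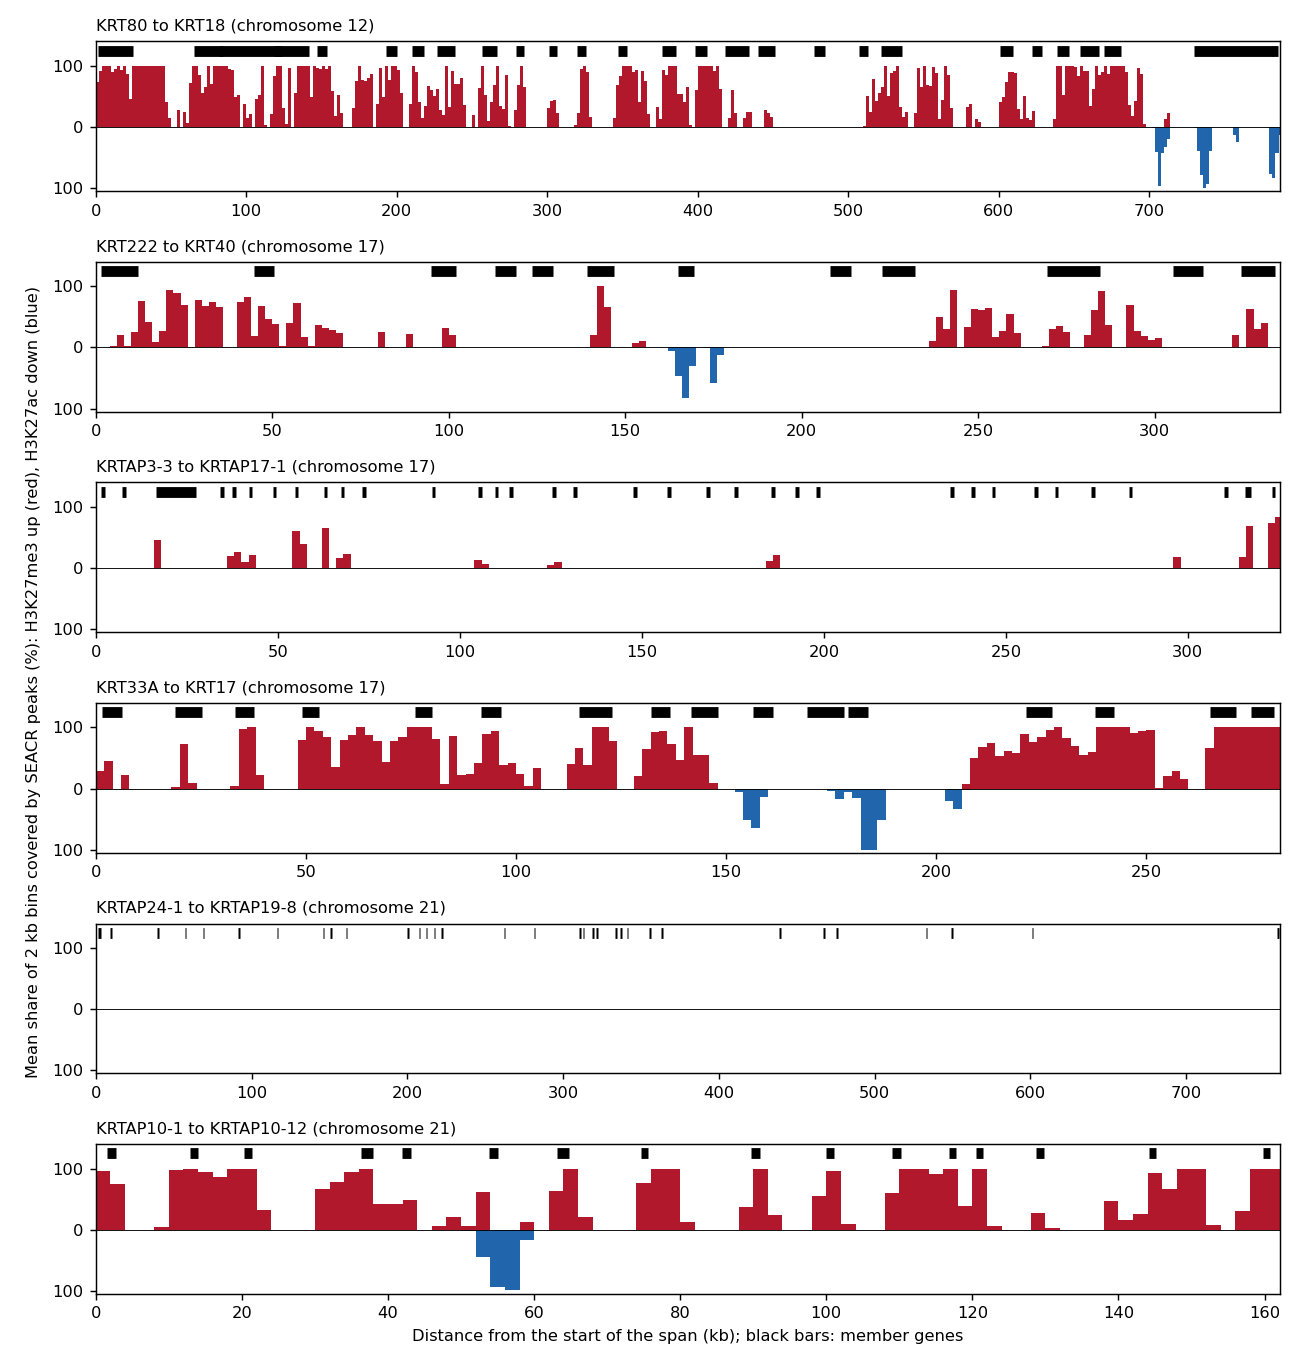
Each panel is 1 cluster span of chromosomes 12, 17 and 21, with distance from its start (kb) across and the mean share of each 2 kb bin under SEACR peaks (%) for H3K27me3 upward (red, 2 libraries) and H3K27ac downward (blue, 6 libraries). Black bars are the member genes, and the panel of the KRTAP24-1 to KRTAP19-8 span, with 33 genes, is empty.

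Within libraries, clusters were compared with each other, so that both spans of a pair had the same depth. For H3K27me3 the 7 SEACR lists were used, the 2 benchmark and 5 other libraries, giving 15 pairs of spans on chromosomes 12, 17 and 21, and an exact two-sided sign-flip test could reach p = 0.0156. Of the 15 pairs, 12 passed at an adjusted p of 0.0195. In 5 of these 12 the other span was KRTAP24-1 to KRTAP19-8, at 0% in every library, where any span with a peak must come out higher and the test adds nothing, so 7 pairs remained with both spans above 0. The KRTAP10-1 to KRTAP10-12 span averaged 23.3% and the KRTAP3-3 to KRTAP17-1 span 1.86%, a difference of 21.4 ± 13.3 percentage points (SD, n = 7), higher in 7 of 7 libraries (exact sign-flip test, adjusted p = 0.0195). The KRT33A to KRT17 span averaged 21.7% and the KRTAP3-3 to KRTAP17-1 span 1.86%, higher in 7 of 7 libraries by 19.8 ± 15.2 points (SD, n = 7, exact test, adjusted p = 0.0195). The KRT222 to KRT40 span averaged 6.84% and the KRT80 to KRT18 span 22.5%, a difference of -15.6 ± 10.8 points, lower in 7 of 7 libraries (SD, n = 7, exact test, adjusted p = 0.0195).

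The 3 pairs that did not pass were those among the KRTAP10-1 to KRTAP10-12, KRT33A to KRT17 and KRT80 to KRT18 spans. KRTAP10-1 to KRTAP10-12 minus KRT80 to KRT18 was 0.818 ± 3.96 points (SD, n = 7, exact test, adjusted p = 0.578), KRTAP10-1 to KRTAP10-12 minus KRT33A to KRT17 was 1.63 ± 3.32 points (adjusted p = 0.27, exact test), and KRT33A to KRT17 minus KRT80 to KRT18 was -0.808 ± 2.22 points (adjusted p = 0.435, exact test). The large SDs of the passing pairs came with a wide range of cover between libraries, 5.30% to 45.2% for the KRT80 to KRT18 span. The 4 libraries made with 11 or 13 PCR cycles were lowest in every marked span, and their lists were made from thinned reads. The part of depth, cycles and extraction in this was not tested.

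**Figure D4:**
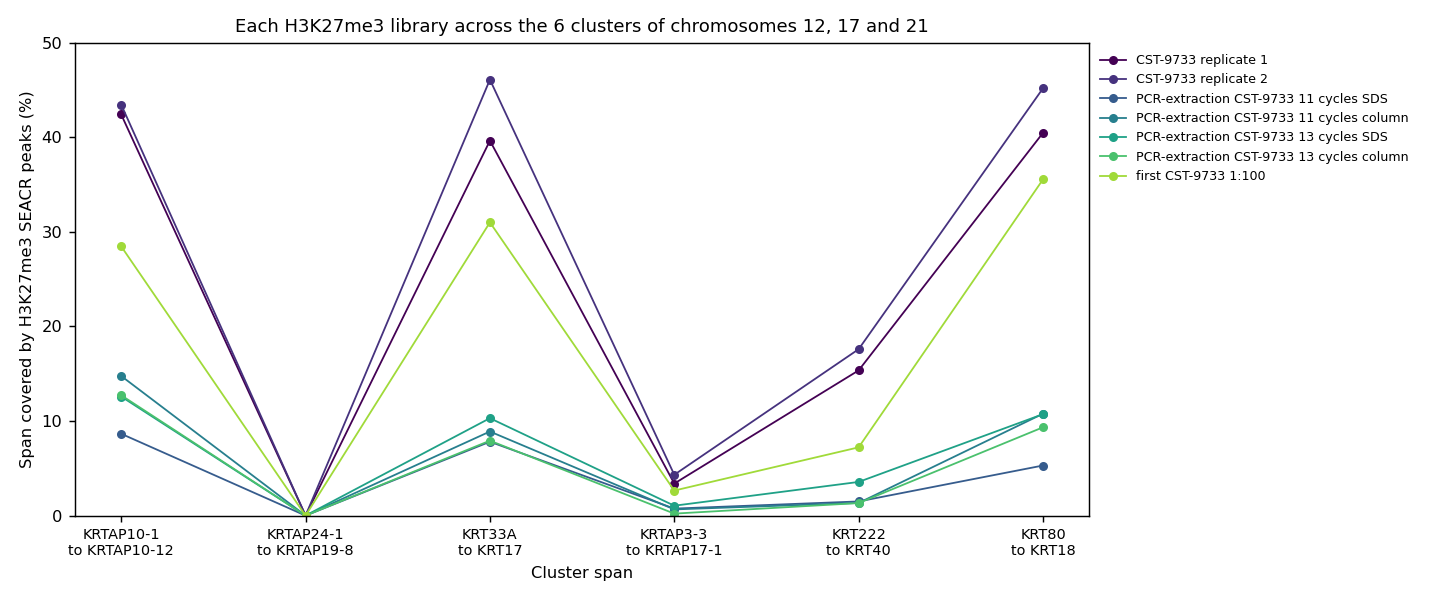
Each line is 1 of the 7 H3K27me3 libraries with a SEACR list, and the points give the share of a span under peaks (%) in the 6 clusters of chromosomes 12, 17 and 21. All 7 lines fall to 0 at KRTAP24-1 to KRTAP19-8 and are low at KRTAP3-3 to KRTAP17-1.

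For H3K27ac in the 6 benchmark libraries, 12 of 15 pairs of spans passed by MACS2 at an adjusted p of 0.0391, and 0 of 15 by SEACR, where the smallest adjusted value was 0.0521 (exact two-sided sign-flip test, smallest p 0.0312). Of the 12, 8 were against a span at 0% in every library, KRTAP24-1 to KRTAP19-8 or KRTAP3-3 to KRTAP17-1, where the direction is fixed, which left 4. By MACS2 the KRT33A to KRT17 span averaged 1.80% and the KRT80 to KRT18 span 0.953%, higher in 6 of 6 libraries by 0.847 ± 0.141 points (SD, n = 6, exact test, adjusted p = 0.0391). By SEACR the KRT33A to KRT17 span averaged 3.44% and the KRT80 to KRT18 span 2.12%, with 4 of 6 libraries higher (exact test, adjusted p = 0.216), so the call stood in 1 caller. Over member genes alone the MACS2 difference turned to -0.025 points and 0 of 15 pairs passed. The H3K27ac pairs by MACS2 lost their call when any 1 library was left out, since 5 libraries cannot reach the threshold.

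The empty span on chromosome 21 held no peak in nearly all other lists. Across all lists of the series, H3K27me3 peaks lay in the KRTAP24-1 to KRTAP19-8 span in 0 of 10 lists and H3K27ac peaks in 2 of 46, both from the TSA library of ab4729, with 1 peak each. In the 500 kb before this span, H3K27me3 MACS2 peaks of the benchmark libraries covered 0.364% of bases, and in the 500 kb after it 13.7%. Around the KRTAP10-1 to KRTAP10-12 span the same values were 51.2% before and 34.2% after, and around the KRTAP3-3 to KRTAP17-1 span, whose sides hold the other keratin runs, 11.7% and 29.0%. The GC content of the KRTAP24-1 to KRTAP19-8 span was 37.2% and that of the KRTAP3-3 to KRTAP17-1 span 40.2%, with 40.1% in the KRT222 to KRT40 span, whose H3K27me3 cover by MACS2 was 16.3% beside 3.15% in KRTAP3-3 to KRTAP17-1, against 48.1% for KRTAP10-1 to KRTAP10-12, 49.1% for KRT80 to KRT18 and 51.4% for KRTAP5-1 to KRTAP5-6. The part of base composition in these values was not tested.

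The remaining 30 libraries, which did not enter the counts at starts, were scored 1 by 1. The H3K27me3 library of the first experiment had peaks at 72 members by MACS2 (48.3%), beside 28.8% of all protein-coding genes, and at 65 by SEACR (43.6%), beside 25.9%. The 4 H3K27me3 libraries of the PCR and extraction experiment had SEACR peaks at 44 to 49 members, beside 18.03% to 25.7% of all protein-coding genes. In the 25 other H3K27ac libraries SEACR peaks lay at 0 to 8 members, with a median of 3, beside 8.62% to 45.2% of all protein-coding genes. KRT8 had a SEACR peak at a start in 22 of these 25 libraries, KRT18 in 19 and KRT19 in 19, while KRTAP10-6 had one in 4, KRT13 in 2, KRT15 in 2 and KRT10 in 0. KRTAP10-7 had an H3K27ac SEACR peak in 2 of the 25 libraries, the ab177178 library of the first experiment and the TSA library of ab4729. The TSA list had H3K27ac peaks at 5 KRTAP10 genes, KRTAP10-2, KRTAP10-4, KRTAP10-5, KRTAP10-7 and KRTAP10-10, named after their values were seen.

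The starts of members were poor in CpG and rich in a TATA motif. In the 300 bases at the outermost start, the 149 members held a median of 2 CpG, against 18 in 20140 protein-coding genes with a complete window, and their median GC content was 45.0%, against 60.3%. The motif TATAAA on either strand lay in 64.4% of members, against 10.9% of protein-coding genes. The motif AGATAA, a core bound by GATA factors, lay in 24.2% of members, against 8.79%, and TGANTCA, the core of AP-1 sites, in 8.05%, against 6.37%. The motifs were searched on both strands and may share letters where they adjoin. How far the lower GC content of the member windows enters these motif shares was not tested.

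By state, the 68 members with H3K27me3 at a start by both callers and no H3K27ac had a median of 4 CpG (0 to 11), the 62 members with no peak a median of 2 (0 to 6), and the 6 members with H3K27ac a median of 7 (1 to 18). TATAAA lay in 55.9% of the members with H3K27me3, 77.4% of those with no peak and 1 of 6 with H3K27ac. Among members with 5 to 9 CpG, 24 of 28 carried H3K27me3 by both callers (85.7%), against 34.8% of the 2713 protein-coding genes with as many CpG. Among members with under 5 CpG, 41 of 115 did (35.7%), against 25.3% of 4097 protein-coding genes, and among members with 10 to 19 CpG 3 of 6 did (50.0%), against 25.5% of 3927. Members of one cluster share sequence and chromatin domain, so these counts are a description.

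**Figure D5:**
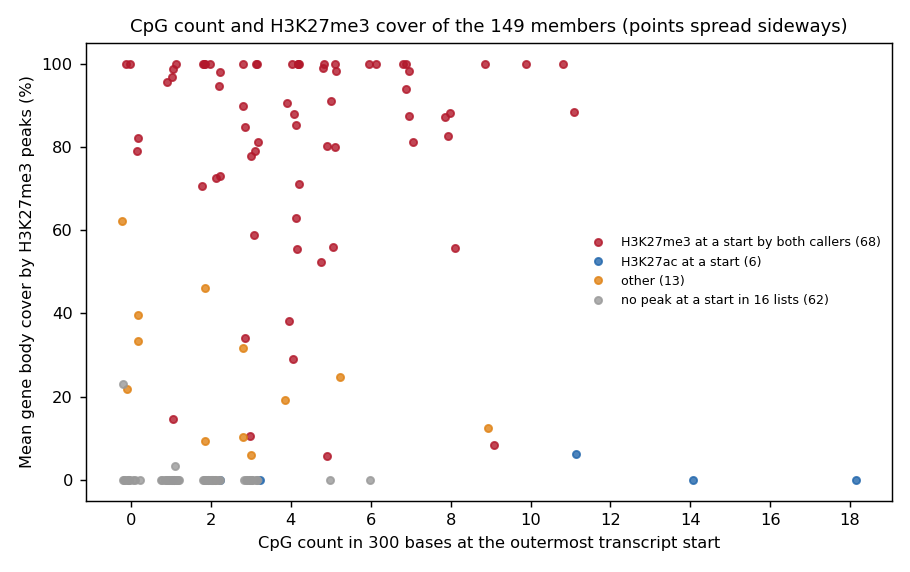
Each point is 1 of the 149 members, with the CpG count in 300 bases at its outermost start across and the mean share of its gene body under H3K27me3 peaks (%), over 2 libraries and 2 callers, upward. Members with no peak at a start (grey, 62) lie at or below 6 CpG, and members with H3K27me3 (red, 68) spread from 0 to 11 CpG.

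Genes that work with keratins were read as lists, beside 24.8% of all protein-coding genes with H3K27me3 and 50.1% with H3K27ac at a start by both callers. Of 13 desmosome genes, which anchor keratin filaments at cell junctions, 6 carried H3K27me3 (46.2%) and 5 H3K27ac (38.5%). The desmoplakin gene DSP had H3K27me3 in 2 of 2 libraries and 82.2% of its body covered by MACS2, while plakoglobin (JUP) had H3K27ac in 6 of 6 libraries. Of 13 cornified envelope genes 2 carried H3K27me3 and 2 H3K27ac (15.4% each), below both shares, and of 6 simple epithelium genes 5 carried H3K27me3 (83.3%) and 1, EPCAM, H3K27ac. Of 9 regulators of skin and hair genes 8 carried H3K27me3 (88.9%), HOXC13, a regulator of hair keratins, with 84.9% of its body covered by MACS2, while TP63, the regulator of stratified epithelium, had neither mark. Of 13 other intermediate filament genes 2 carried H3K27me3 (15.4%) and 6 H3K27ac (46.2%). The 6 were the vimentin gene VIM, the filament of mesenchymal and blood cells, the lamin genes LMNA, LMNB1 and LMNB2, and DES and NEFH. DES, the desmin gene, had H3K27ac in 6 of 6 libraries by both callers. NEFH, a neurofilament gene, had it in 5 of 6 by MACS2 and 2 of 6 by SEACR.

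The label of the cells was checked against markers. All 10 erythroid and K562 markers (among them GATA1, TAL1 and KLF1) carried H3K27ac by both callers and 0 carried H3K27me3. H3K27ac lay at 1 of 3 T cell genes (CD3D) and 0 of 3 liver genes by both callers. Of 4 epithelium markers 1, EPCAM, carried H3K27ac in 6 of 6 libraries, 2, CDH1 and GRHL2, carried H3K27me3, and TP63 carried neither, so the epithelial marker EPCAM carried the same mark as KRT8, KRT18 and KRT19, and its part in these results was not tested. Lists held 65638 to 77412 H3K27me3 peaks by MACS2 and 83643 to 85248 by SEACR, against 21317 to 34897 H3K27ac peaks by MACS2 and 10930 to 15614 by SEACR. Peak lists give no read depth, so the error of a single list is unknown here.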

How the data were processed

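CUT&Tag libraries of H3K27me3 and H3K27ac from K562 were used as 56 deposited peak lists of 38 libraries. The authors trimmed reads (Trim Galore 0.6.6), aligned them to hg19 (Bowtie2 2.2.9), removed PCR duplicates (Picard 2.6.0), made fragment files (SAMtools 1.3.1, bedtools 2.25.0; under 1000 bp) and called peaks with MACS2 (q 1e-05, broad for H3K27me3) and SEACR (threshold 0.01 for H3K27ac and 0.1 for H3K27me3). The MACS2 lists deposited by the authors hold a display score, a fold enrichment ratio and −log10 p and q values, and the SEACR lists the total and maximum signal (coverage) of a region. A q of 1e-05 does not bound the broad H3K27me3 lists of the benchmark, where 91.9% of peaks in replicate 1 and 83.7% in replicate 2 carry a larger q. Each list was called on 1 library, and regions known to give false signal were not removed here. A mapping quality filter, and which of the 2 SEACR modes was used, are not clear from the sources used here.

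Gene positions came from GENCODE lifted to GRCh37, the build of the files. Peaks were intersected with gene starts and bodies in Python 3.11.15 (numpy 2.4.6, pandas 2.3.3), and the cover count was checked against bedtools 2.31.1 and tested on simulated data. Tests were exact permutation or sign-flip tests, two-sided, with Benjamini-Hochberg adjustment. Named genes were members with H3K27ac at a start, 12 with H3K27me3 by largest body cover (ties in genome order), a set of textbook keratins, the ends of clusters and members with both marks, while KRT3, KRT9, KRT15, KRT72, KRTAP12-2 and further KRTAP10 genes were named after their values were seen. The members and lists were chosen with earlier results of these data known. The markers of 1 cell type and the sequence at some starts are not reported here. Other thresholds, windows and left-out libraries were tried. The split of genes by length, windows at the inner KRT8 starts, members of repeated words and the flanks of spans were added after seeing the data.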

Additional observations from a re-analysis of the deposited data

Results flagged for a closer look

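Of 29 sets of libraries examined for 1 value far from the rest, 4 held one. The usual chance rate of about 1 in 20 need not hold for shares piled at 0% or 100%, as at KRT13 and KRTAP10-6. KRT18 body cover by H3K27ac MACS2 peaks was 36.99% in the lowest of 6 libraries, ab4729 replicate 1, well below the other 5. KRT13 body cover by H3K27ac MACS2 peaks was 11.0% in the highest library, ab177178 replicate 2, and 0% in the other 5. KRTAP10-6 body cover by H3K27ac was 50.7% by MACS2 in the highest library, ab4729 replicate 2, and 29.3% by SEACR in the lowest, Diagenode replicate 2, where the other 5 were at 100%.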

How the results depend on the processing

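Of the alternative values of the main counts, 130 stayed within 1.5 times the main value and 18 did not. At a MACS2 q of 1e-10, members with H3K27me3 fell to 5 at starts and 5 over bodies (KRTAP5-6, KRTAP10-1, KRTAP10-2, KRTAP10-3 and KRTAP10-12), and spans at p under 0.05 numbered 4, with H3K27me3 minus H3K27ac reversed in KRT80 to KRT18 (-0.77 points) and KRT222 to KRT40 (-0.55 points) (exact permutation p = 0.0357 each), and the cause was not tested. With windows shared with a gene outside the families left out, H3K27ac lay at 2 members by MACS2 and 3 by SEACR. Spans at p under 0.05 ranged from 0 to 7 with 1 library left out, since 1 H3K27me3 library against 6 cannot go below an exact p of 0.143. With the replicate block, 0 spans and 0 genes passed, as the 16 exchanges within a number cannot go below 0.0625. Replicate numbers pair no cultures in the labels, and same-numbered deviations correlated at -0.0726 to 0.414. H3K27ac pairs of spans by MACS2 numbered 0 with 1 library left out, and 0 over member genes alone, where KRTAP10-1 to KRTAP10-12 minus KRT222 to KRT40 was -0.379, minus KRT80 to KRT18 -1.01, and KRT33A to KRT17 minus KRT80 to KRT18 -0.025 points, each reversed. H3K27me3 pairs stayed at 12 to 13 of 15 under each alternative. For single spans and pairs, 372 values kept direction and call, 127 lost the call, 2 gained it and 5 reversed.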
